A study of Mus musculus with 12 samples.

Results

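The cytosolic ribosomal protein genes of the mouse were taken as all genes whose symbol is Rpl or Rps followed by a number (with or without the letter a, l or x), Rplp0 to Rplp2, or Rpsa. The rule matched 79 genes of 17463 with a symbol in both deposited tables, 48 coding for proteins of the large ribosomal subunit and 31 for proteins of the small subunit. Spliced reads, which cross an exon-exon junction, were counted for them in polyA-selected, strand-specific RNA libraries of wild type NMRI mice. The 12 libraries form 6 groups of 2. The tissue groups are neocortex at postnatal day 49 (P49) and neocortex at postnatal day 10 (P10). In the same table are cultures given DRB at 50 uM for 2 hours and untreated control cultures. A separate table holds 2 groups of cultures, both given DRB at 50 uM for 2 hours. Of these, 1 group was also given bicuculline at 20 uM for 1 hour, and the other was given DRB alone. All cultures were dissociated cells of the neocortex of E16.5 embryos, kept for 14 days before use. DRB inhibits the kinases that RNA polymerase II needs for elongation, and bicuculline blocks GABA-A receptors and thereby raises the activity of a neuronal network. The sources used here do not say how many animals or cultures stand behind a group, and a single tissue code stands in the names of both P10 columns, so p-values measure the spread between these libraries, which may be technical. Some column names of the first DRB group mention TTX, a blocker of action potentials, but the labels do not state that it was added.

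Ribosomal proteins join the ribosomal RNAs to build the particles that translate all mRNAs, and their own mRNAs belong to the most abundant and longest-lived transcripts of a cell. Most of these mRNAs start with a C followed by a run of pyrimidines, the TOP element, through which mTOR and the RNA-binding protein LARP1 control their translation. They are made most in growing cells, and in neurons some of them are also found in dendrites and axons.

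The starts of the genes were searched for short pyrimidine words, and a few starts are printed. Such a word near a start is not the element itself, which was not mapped. Promoters of 59 of the 79 genes were found in the RefSeq table of GRCm38.p6, 71 in all. The words CTTTC or CTTTT on the sense strand within 20 bases of the start were present in 23 of them (32.4%), against 9.42% of all 32851 promoters in the table. Below, 15 bases before and 15 from the start on are given 5′ to 3′ and the word stands in capitals. The first 4 genes hold it. Rps24 and Rps27l, both with 2 listed starts of which the upstream one is shown, do not hold it there. Rps24 rose at P49 and Rps27l fell with DRB, both against the direction of most members. The word was absent in 36 of the 59 genes, and a link between the word and a gene's direction was not tested.
Rps27 (chr3:90213634-90213663, minus strand): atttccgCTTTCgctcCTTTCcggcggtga
Rpl38 (chr11:114668565-114668594, plus strand): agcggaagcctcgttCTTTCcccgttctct
Rplp2 (chr7:141447636-141447665, plus strand): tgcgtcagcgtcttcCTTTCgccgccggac
Rps6 (chr4:86857353-86857382, minus strand): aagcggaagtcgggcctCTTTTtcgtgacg
Rps24 (chr14:24490663-24490692, plus strand): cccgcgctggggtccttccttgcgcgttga
Rps27l (chr9:66946071-66946100, plus strand): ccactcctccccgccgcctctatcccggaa

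Other words were counted over the whole 300 bases on both strands. CCGGAA, the core bound by ETS factors, was in 47.9% of member promoters and 14.9% of all promoters. AAGATGG, a word of YY1 sites, was in 15.5% against 6.34%, and GATTGGC, which holds the CCAAT box, in 2.82% against 6.83%. A word is a match of letters and no measured binding.

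The reads themselves lie on junctions, and ribosomal protein genes have many processed copies in the genome, so a sequence that spans a junction of the gene can also occur, unspliced, in a copy. The 60 bases around each junction (30 of each exon, GENCODE release 21 transcripts, GRCm38) were therefore searched in the other annotated genes. The search took 351 junctions, from 1 principal transcript of each of the 79 members, without those under 30 bases from a transcript end. Of these, 216 in 71 members had at least 1 exact copy elsewhere, and 135 in 69 members had none. Sums over junctions without an exact copy, given below, leave out all member junctions that were not searched. A junction with an exact copy had a median of 797.5 reads over the 12 libraries, and one without had 8026. Junctions with under 100 reads went the other way, being 6.48% of those with an exact copy and 20.7% of those without. Across the 351 junctions reads and the number of exact copies had a Spearman coefficient of -0.26, over junctions that share genes and libraries. With copies of up to 3 mismatches counted as well it was -0.1. The sources used here do not give how reads with several places in the genome were treated, so levels of members with copies are uncertain. The 6 junctions below are those on which single results turned. The bases of the downstream exon stand in capitals.
Rplp0 exon 6 to 7 (chr5:115562567-115563282, plus strand): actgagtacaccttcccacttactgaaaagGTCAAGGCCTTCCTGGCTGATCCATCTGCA
Rpsa exon 3 to 4 (chr9:120129277-120130117, plus strand): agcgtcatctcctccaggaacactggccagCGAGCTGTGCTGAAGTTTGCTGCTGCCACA
Rpsa exon 6 to 7 (chr9:120131166-120131399, plus strand): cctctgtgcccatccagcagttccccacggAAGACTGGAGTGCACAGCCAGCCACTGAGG
Rpl21 exon 5 to 6 (chr5:146835715-146835863, plus strand): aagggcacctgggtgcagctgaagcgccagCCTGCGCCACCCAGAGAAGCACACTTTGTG
Rps2 exon 2 to 3 (chr17:24720453-24720533, plus strand): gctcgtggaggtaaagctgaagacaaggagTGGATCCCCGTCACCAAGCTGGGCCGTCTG
Rps24 exon 3 to 4 (chr14:24492117-24493382, plus strand): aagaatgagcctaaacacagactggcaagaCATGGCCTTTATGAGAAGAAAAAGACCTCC

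Spliced reads with a gene symbol numbered 49987335 to 74647659 per library in the first table, against 62913370 to 70406878 in the second table. Neuronal markers (6 genes) summed to 6880 to 6900 CPM (spliced reads per gene, scaled to a common library size as adjusted by TMM) at P49 and to 1670 to 1760 in control cultures, their lowest group, and all 6 had reads in every group. Astrocyte markers summed to 553 to 564 CPM at P49 and to 1560 to 1570 in control cultures. Markers of red blood cells summed to 55.1 to 121 CPM in tissue and to under 1 CPM in every culture.

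Members took a small share of each library. The 2 libraries of a group gave 0.694% and 0.714% of spliced reads at P49, 0.860% and 0.872% at P10, 1.26% and 1.18% with DRB and 1.00% and 1.03% in control cultures. In the second table they gave 1.32% and 1.29% with DRB and bicuculline and 1.32% and 1.33% with DRB alone. The share was lower at P49 than at P10 and higher with DRB than in control cultures, with no overlap of libraries in either pair, and it differed by less between DRB with bicuculline and DRB alone. In such bulk samples fewer cells of a type and less RNA per cell cannot be told apart. Single members differed far more in depth, with 57 reads over the 12 libraries for Rpl39l and 875108 for Rpl4, and a median of 29320.

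**Figure D1:**
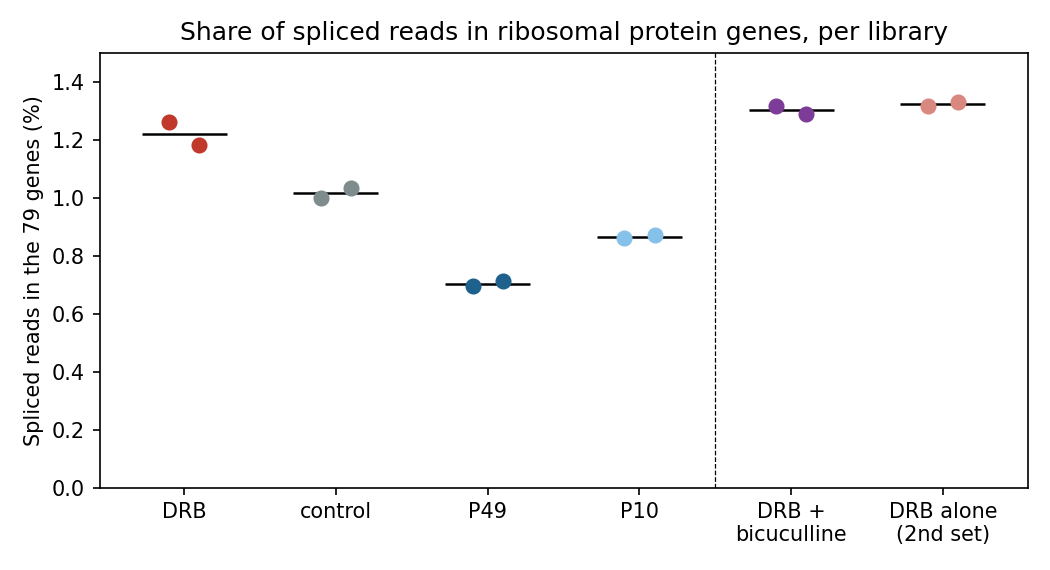
Share of all spliced reads with a gene symbol that fell on the 79 ribosomal protein genes, in percent, 1 point per library and a line at the mean of each group's 2 libraries. P49 libraries lie below P10 libraries, DRB libraries lie above control libraries, and the groups of the second table lie at 1.29% to 1.33%.

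Levels were compared between genes per junction, as CPM divided by the number of junctions that carried at least 5% of the reads of the gene's most-read junction. Rplp1, an acidic protein of the stalk that draws elongation factors to the ribosome, led all 4 groups of the first table, with 146 ± 4.8 CPM per junction at P49, 181 ± 7.30 at P10, 241 ± 10.8 with DRB and 154 ± 1.12 in control cultures (SD, n = 2 each). Next at P49 came Rps15 at 116 ± 7.64 CPM per junction, a small-subunit protein needed for export of its subunit, and Rpl4 at 91.2 ± 0.161, which lines the exit tunnel for the new peptide. Rps24 (87.2 ± 1.96), Rpl32 (85.3 ± 2.4) and Rpl13a (85.2 ± 3.87) followed, and these 3 did not differ beyond their SD. The order turned with the limit: at 20% in place of 5%, Rps24 led at P49 with 174 CPM per junction against 146 for Rplp1, and 2 or 3 of the 5 highest members of a group were shared between both limits. In the second table Rps24 led, with 221 ± 7.98 CPM per junction with bicuculline and 228 ± 0.504 without, ahead of Rpl7 (190 ± 0.0154 and 190 ± 2.01), Rpl32 (187 ± 0.930 and 184 ± 1.68) and Rplp1 (164 ± 9.14 and 166 ± 6.62).

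The lowest members in all 6 groups were Rpl39l and Rpl3l, the copies of Rpl39 and Rpl3 known from testis and from striated muscle. Rpl39l had 0.0259 to 0.0633 CPM per junction in group means and 0 to 12 reads in a library, and failed the filter on low counts, so 78 members were tested. Rpl3l had 0.0462 to 0.0830 CPM per junction. Rps6, the substrate of the S6 kinases, had only 0.207 to 0.309 CPM per junction in the 6 groups, and Rpl17, Rpl27, Rpl28 and Rpl29 were also near the bottom. Levels this low for proteins that every ribosome holds are counts of spliced reads as deposited, and the part of genomic copies in them was not tested.

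Adult neocortex had fewer reads of most ribosomal protein genes than neocortex at P10. At an adjusted p (Benjamini-Hochberg over all 15481 genes tested, edgeR's quasi-likelihood test) under 0.05, 44 of 78 members fell and 2 rose, while 28.9% of all genes tested were called lower and 28.2% higher. The median log2 change over the 78 was -0.30, a fold of 0.814, with quartiles at -0.52 and -0.12, and the median of all genes was -0.0007. By subunit, 25 of 47 large-subunit members fell and none rose, and 19 of 31 small-subunit members fell and 2 rose, a difference that was not tested. Without the first P10 library 4 rose, and over junctions without an exact copy, where 63 members were tested, 29 fell and 3 rose.

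The stalk fell as a whole. Rplp0, the base of the stalk, had 174 and 137 CPM at P49 against 421 and 422 CPM at P10. The P49 libraries lay far below those of P10. Its log2 change was -1.44 ± 0.088 (SE; adjusted p = 1.23e-07), the largest decrease among the members, 2.71-fold lower at P49. Part of the distance between the P49 libraries lay at exon 6 to 7, the first junction printed above, with 2371 and 60 reads at P49 against 6409 and 6396 at P10. At the other junctions both P49 libraries were close: exon 3 to 4 had 3288 and 3024 reads at P49 against 8220 and 8682 at P10.

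Rplp1 had 284 and 298 CPM at P49 against 371 and 351 CPM at P10, and Rplp2 had 103 and 102 CPM at P49 against 153 and 156 CPM at P10. Neither pair of groups overlapped. Rplp1 changed by -0.31 ± 0.049 on the log2 scale (adjusted p = 2.26e-04) and Rplp2, its partner on the stalk, by -0.59 ± 0.064 (adjusted p = 1.20e-05), so the 3 proteins of 1 structure fell by different amounts.

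Rpsa, the small-subunit protein also known as laminin receptor, had 114 and 121 CPM at P49 against 219 and 227 CPM at P10 (log2 change -0.92 ± 0.054, adjusted p = 8.90e-08). Its reads fell alike along the transcript. Exon 3 to 4 had 3612 and 3436 reads at P49 against 7335 and 7909 at P10, and exon 6 to 7 had 1837 and 1690 at P49 against 3646 and 4078 at P10. Both junctions gave the direction of the sum, with no overlap.

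The other 3 of the 5 largest decreases among called members were in large-subunit genes. Rpl10a, which forms the stalk near the exit site, had 4.45 and 3.97 CPM at P49 against 7.24 and 7.21 CPM at P10 (log2 change -0.78 ± 0.11). Rpl27 had 1.35 and 1.27 CPM at P49 against 2.71 and 2.03 CPM at P10 (log2 change -0.85 ± 0.18). Rpl21 had 8.12 and 7.58 CPM at P49 against 13.9 and 15.4 CPM at P10 (log2 change -0.90 ± 0.085). All 3 passed the test with no overlap. The call of Rpl21 was lost when only its junctions without an exact copy were kept (log2 change -0.85, adjusted p = 0.159) and when the median over its junctions replaced their sum (adjusted p = 0.488). With that median Rpl27 and Rpl10a lost theirs too (adjusted p = 0.245 and 0.0890). Next in size came a small-subunit gene, Rps26, with 65.6 and 66.5 CPM at P49 against 116 and 104 CPM at P10 (log2 change -0.73 ± 0.064), a gene named here after its values were seen.

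Further members named by role also fell. Rpl39, which lines the exit tunnel, had 71.9 and 70.4 CPM at P49 against 105 and 117 CPM at P10 (log2 change -0.64 ± 0.064, adjusted p = 6.05e-06). Rpl10, which completes the large subunit late in its assembly, had 4.85 and 4.37 CPM at P49 against 6.82 and 7.49 CPM at P10 (log2 change -0.63 ± 0.11). Rpl22, an RNA-binding member with a close paralog, had 37.9 and 37.7 CPM at P49 against 51.4 and 53.8 CPM at P10 (log2 change -0.48 ± 0.054). In each of the 3 both P49 libraries were below both P10 libraries. Rps4x, the X-linked small-subunit member, also fell, with 140 and 140 CPM at P49 against 186 and 197 CPM at P10.

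Against this direction stood 2 small-subunit genes. Rps24, mutated in some human patients with Diamond-Blackfan anaemia, had 177 and 172 CPM at P49 against 111 and 122 CPM at P10. It rose 1.5-fold (log2 change 0.58 ± 0.060, adjusted p = 7.84e-06). Rps21, which lies beside Rpsa in the small subunit, had 404 and 419 CPM at P49 against 318 and 347 CPM at P10 and rose 1.24-fold (log2 change 0.31 ± 0.081, adjusted p = 0.00708). For both genes the lower P49 library was above the higher P10 library. Rps24's increase sat on 1 junction: exon 3 to 4 had 10554 and 9032 reads at P49 against 6127 and 7348 at P10, while exon 2 to 3 had 875 and 842 reads at P49 against 1004 and 1132 at P10.

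Several members showed no call. Rpl13a, a large-subunit protein with a role in silencing of inflammatory mRNAs, had 703 and 659 CPM at P49 against 658 and 676 CPM at P10, and these overlap. Rps27a, made as a fusion with ubiquitin, had 7.47 and 7.80 CPM at P49 against 7.06 and 7.69 CPM at P10. Rps6 had 1.98 and 1.47 CPM at P49 against 1.48 and 1.52 CPM at P10. Log2 changes of these 3 were 0.03 ± 0.052, 0.05 ± 0.099 and 0.20 ± 0.19. Rpl3, Rpl3l, Rpl26 and Rps27 were not called either, at log2 changes of -0.17, -0.01, -0.19 and 0.10.

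Cell type markers differed with age. Summed oligodendrocyte markers (6 genes) were 2670 to 2730 CPM at P49 and 872 to 1020 CPM at P10, neuronal markers (6) 6880 to 6900 and 4490 to 4520 CPM, and markers of dividing cells (4) 5.43 to 6.61 at P49 and 48.8 to 50.9 at P10. Fibroblast and mural markers (5) were 214 to 222 CPM at P49 and 473 to 495 at P10. Their part in the change of the members was not tested. Reads at the first over the last junction, summed over 77 members, were 0.859 and 0.915 at P49 and 0.926 and 0.922 at P10. These do not overlap, and the part of read position in the change was not tested either.

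**Figure D2:**
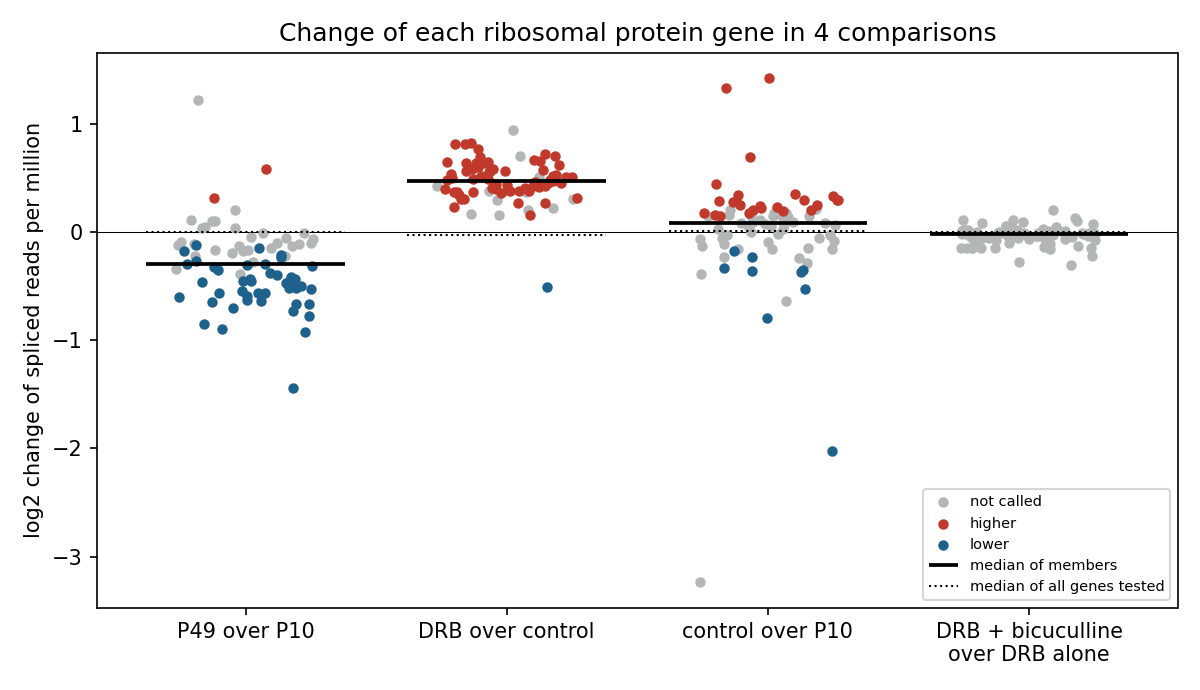
Log2 change of each of the 78 members tested in 4 comparisons, 1 point per gene, coloured by the call at an adjusted p of 0.05, with the median as a line. Most points of P49 against P10 lie below 0 (median -0.30), those of DRB against control above 0 (median 0.47) and those of DRB with bicuculline against DRB alone within -0.31 to 0.20.

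Cultures given DRB held more reads of ribosomal protein genes, relative to all spliced reads, than control cultures. Of 78 members, 64 rose and 1 fell, against 29.7% of all genes tested called higher and 33.0% called lower. The median log2 change was 0.47, a fold of 1.38, with quartiles at 0.37 and 0.58, and the median of all genes was -0.03. Point estimates were above 0 for 77 of 78. Large-subunit genes had 36 of 47 higher and none lower, and small-subunit genes 28 of 31 higher and 1 lower. CPM and log2 changes are adjusted by TMM, with factors of 0.949 and 0.957 with DRB and 1.08 in both control libraries. They are therefore not the plain shares, which were 1.26% and 1.18% with DRB and 1.00% and 1.03% in control cultures. Total RNA was not measured, so neither a larger share nor a larger CPM shows a larger amount. Over junctions without an exact copy 38 of 63 rose and 1 fell, with a median of 0.50.

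Rpl37, a zinc-finger protein of the large subunit, had 68.7 and 67.8 CPM with DRB against 35.7 and 41.5 CPM in control cultures. It rose 1.77-fold, the most among the members called (log2 change 0.82 ± 0.074, adjusted p = 2.25e-06). Rps12 had 8.82 and 8.67 CPM with DRB against 5.17 and 4.8 CPM in control cultures (log2 change 0.81 ± 0.12). Rps28 had 23.4 and 22.7 CPM with DRB against 12.5 and 14.7 CPM in control cultures (log2 change 0.76 ± 0.10). Rps29, a zinc-finger protein of the small subunit, had 6.20 and 5.23 CPM with DRB against 3.75 and 3.21 CPM in control cultures (log2 change 0.72 ± 0.14). The 4 genes shared the direction in every library.

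Rps27, the paralog of Rps27l, had 3.05 and 2.87 CPM with DRB against 1.95 and 1.44 CPM in control cultures. It rose 1.75-fold (log2 change 0.81 ± 0.20, adjusted p = 0.00440), and the adjusted p was 0.0527 without control replicate 2. Rps27l went the other way, with 42.2 and 41.3 CPM with DRB against 60.5 and 58.5 CPM in control cultures. It was the only member that fell (log2 change -0.51 ± 0.065, adjusted p = 3.38e-05), and it did so in all 12 alternative settings. Rps27l is known as a gene induced by p53. Mdm2, a classical p53 target, had 19.4 and 20.5 CPM with DRB against 64.7 and 62.2 CPM in control cultures (log2 change -1.67 ± 0.060, adjusted p = 1.53e-08). Of all genes tested 33.0% were called lower with DRB, and a link of either gene's decrease to p53 was not tested.

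The decrease of Rps27l was seen along its transcript. Exon 3 to 4 had 941 and 1052 reads with DRB against 1287 and 1382 in control cultures, although the DRB libraries were the deeper ones. Exon 1 to 2 had 635 and 643 reads with DRB against 842 and 954 in control cultures.

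In the stalk, Rplp0 had 678 and 637 CPM with DRB against 485 and 504 CPM in control cultures, and Rplp1 had 497 and 466 CPM with DRB against 307 and 310 CPM in control cultures. Both rose, by 0.41 ± 0.086 and 0.64 ± 0.049 on the log2 scale. Rplp2 had 186 and 195 CPM with DRB against 158 and 184 CPM in control cultures and narrowly missed the threshold (log2 change 0.15 ± 0.064, adjusted p = 0.0533), which 6 of 12 alternative settings crossed. Rpsa had 87.5 and 85.2 CPM with DRB against 52.3 and 57.3 CPM in control cultures and rose 1.58-fold.

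Genes at very different levels rose by like amounts. Rpl13a had 1070 and 987 CPM with DRB against 680 and 717 CPM in control cultures (1.47-fold), and Rps6 had 2.20 and 2.13 CPM with DRB against 1.39 and 1.5 CPM in control cultures (1.49-fold). The first call has an adjusted p of 2.80e-06. The call of Rps6, with an adjusted p of 0.0220, was lost in 8 of 12 alternative settings. Rps24 (1.39-fold), Rpl10 (1.39-fold), Rps27a (1.31-fold), Rps4x (1.29-fold), Rpl39 (1.29-fold) and Rpl22 (1.23-fold) rose as well. Rpl26, known to bind the p53 mRNA in human cells, rose 1.36-fold and lost its call in 5 settings, while Rpl3 and Rpl3l had log2 changes of 0.20 ± 0.12 and 0.44 ± 0.49 with no call.

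Of the tested members with a listed promoter, the 22 with CTTTC or CTTTT at the start had a median log2 change of 0.48 with DRB, and the 36 without had 0.45. This difference was not tested.

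Cell type markers differed here as well. Neuronal markers summed to 3150 to 3230 CPM with DRB and to 1670 to 1760 CPM in control cultures, dividing-cell markers to 83.3 to 88.8 and 262 to 297, and fibroblast and mural markers to 192 to 193 with DRB and 576 to 698 in control cultures. Astrocyte markers were 1330 to 1410 CPM with DRB and 1560 to 1570 in control cultures. Their part in the change of the members was not tested. Reads at the first junction over reads at the last junction, summed over 77 members, were 0.885 and 0.867 with DRB and 0.866 and 0.946 in control cultures, which overlap.

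**Figure D3:**
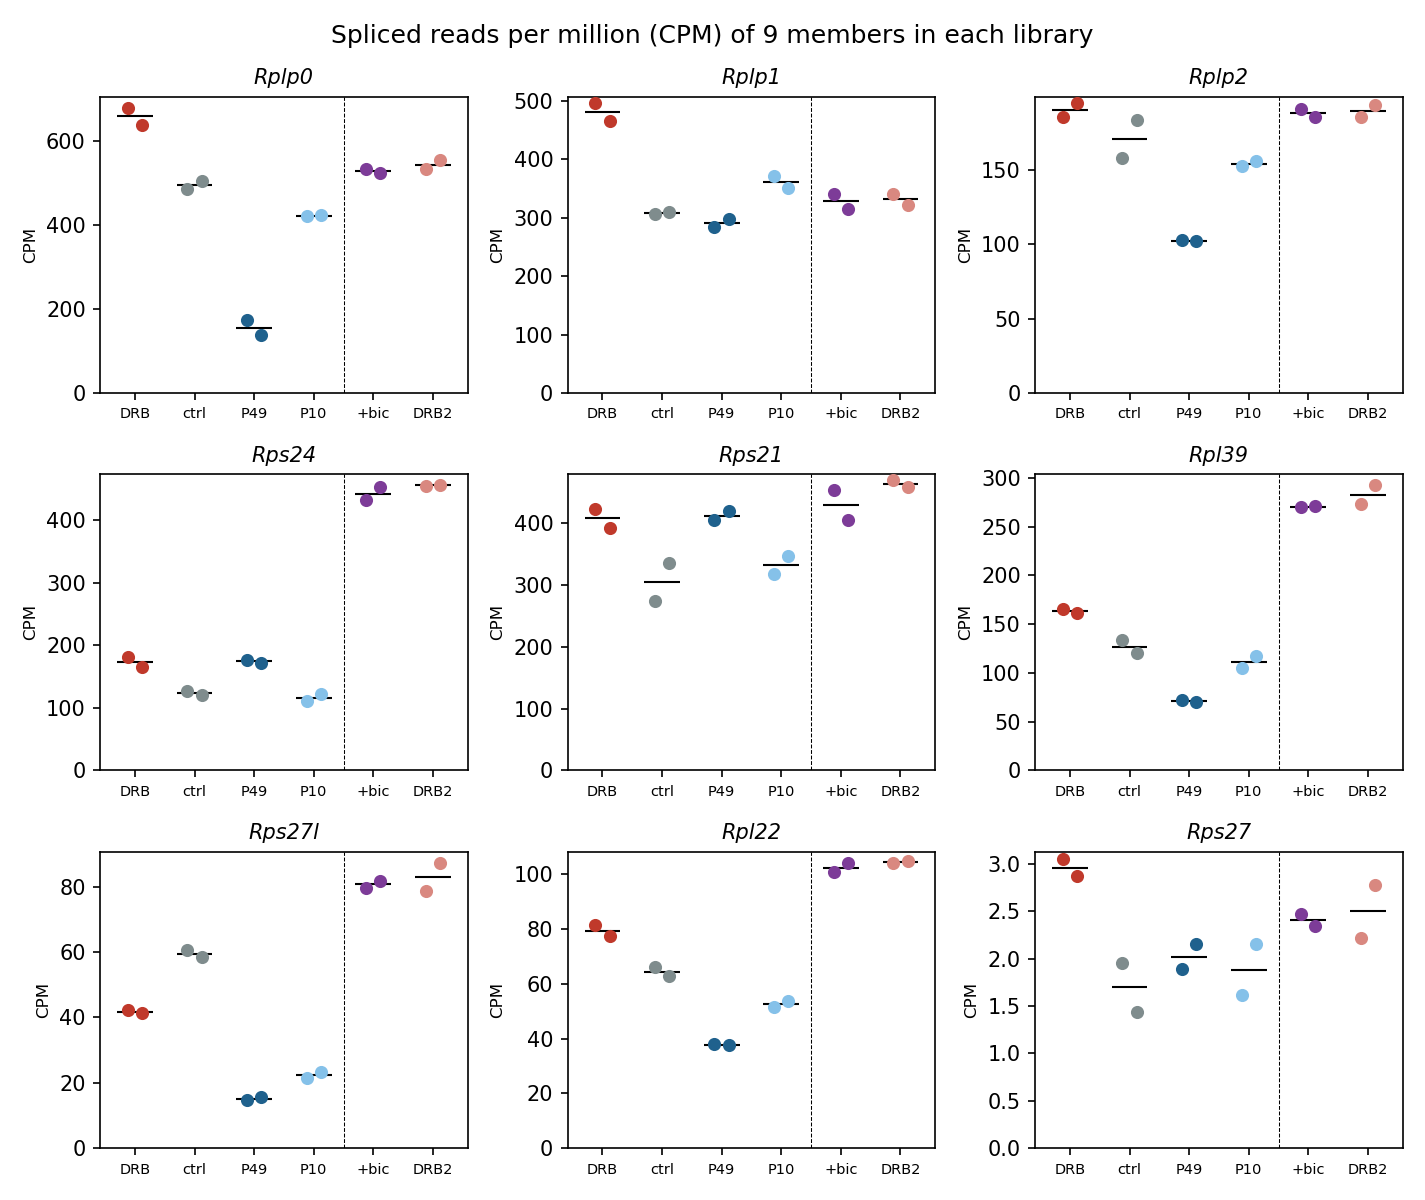
CPM of 9 members in each of the 12 libraries, 1 panel per gene with its own axis from 0, groups in the order DRB, control, P49, P10 and then DRB with bicuculline and DRB alone. Rps27l is lower with DRB than in control cultures, the points of the other 8 lie above those of control cultures, and Rps24 and Rps21 are higher at P49 than at P10.

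The comparisons of age and of DRB share no library. Of the 44 members that fell at P49, 39 rose with DRB, 4 had no call there and 1, Rps27l, fell in both. Of all 78 members 82.1% rose with DRB, against 29.7% of all genes tested, and a link between the 2 comparisons was not tested. The 2 that rose at P49, Rps24 and Rps21, rose with DRB too. Of the 32 without a call at P49, 23 rose with DRB and 9 had no call in either comparison.

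Cultures and tissue at P10, which differ in age, cell make-up and environment, were compared as well. The members' share of spliced reads was 1.00% and 1.03% in control cultures against 0.860% and 0.872% at P10, with no overlap. In control cultures 25 of 78 members were higher and 9 lower than at P10, against 37% of all genes tested in each direction. The median log2 difference was 0.08 and that of all genes 0.01. These differences are adjusted by TMM and the share is not. The 9 lower became 4 without the first control library and 5 without the second P10 library, and over junctions without an exact copy 16 of 63 were higher and 3 lower. Control libraries enter both this comparison and that with DRB, and P10 libraries enter both this one and that with P49, so their changes are not independent.

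Rps27l differed most upward, with 60.5 and 58.5 CPM in control cultures against 21.3 and 23.2 CPM at P10 (log2 difference 1.42 ± 0.067, adjusted p = 3.62e-09). Over the first table its lowest libraries were those of P49, at 14.6 and 15.6 CPM, and its highest those of control cultures. Rpl7, a large-subunit protein, had 514 and 499 CPM in control cultures against 305 and 324 CPM at P10 (log2 difference 0.69 ± 0.046). Rps4x had 273 and 248 CPM in control cultures against 186 and 197 CPM at P10 (log2 difference 0.44 ± 0.053). Rpl15 was higher by 0.35 ± 0.11, a call lost in 4 of 12 settings.

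Among those lower, Rpl29 had 0.630 and 0.686 CPM in control cultures against 1.02 and 1.27 CPM at P10 (log2 difference -0.80 ± 0.24), Rpl41, the shortest ribosomal protein, 5.36 and 5.47 CPM in control cultures against 7.09 and 8.53 CPM at P10 (-0.53 ± 0.12), and Rps12 5.17 and 4.8 CPM in control cultures against 6.24 and 6.67 CPM at P10 (-0.37 ± 0.12). Rpl13 was lower by a log2 difference of -0.36 ± 0.14. Each of these 4 calls was lost in 1 to 6 alternative settings. Rplp1 was lower in cultures too, at 307 and 310 CPM against 371 and 351 CPM at P10 (log2 difference -0.23 ± 0.049).

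In Rpsa and Rpl21 much of a large difference lay on single junctions. Rpsa had 52.3 and 57.3 CPM in control cultures against 219 and 227 CPM at P10, a log2 difference of -2.02 ± 0.056. Its exon 3 to 4 had 3 and 5 reads in control cultures and 14 and 9 with DRB, against 7335 and 7909 at P10. In the second table the same junction had 5604 and 4852 reads with DRB and bicuculline and 5076 and 4907 with DRB alone. Exon 6 to 7 held 2126 and 2703 reads in control cultures against 3646 and 4078 at P10. The 60 bases of exon 3 to 4 occur exactly in 4 other annotated genes. Over the junctions of Rpsa without an exact copy the difference was -0.53 (adjusted p = 0.00732).

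In Rpl21 the order was turned round. Exon 5 to 6 had 1163 and 1192 reads in control cultures and 1991 and 1898 with DRB, against 3 and 2 at P49 and 0 and 0 at P10, while 1570 to 1862 reads lay on it in libraries of the second table. Its 60 bases occur exactly in 17 other annotated genes. Summed over all junctions Rpl21 was higher in control cultures, with 37.6 and 35.8 CPM against 13.9 and 15.4 CPM at P10 (log2 difference 1.33 ± 0.080), and over those without an exact copy the difference was 0.02 (adjusted p = 0.970). Why these junctions are read in some groups and nearly empty in others was not tested.

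**Figure D4:**
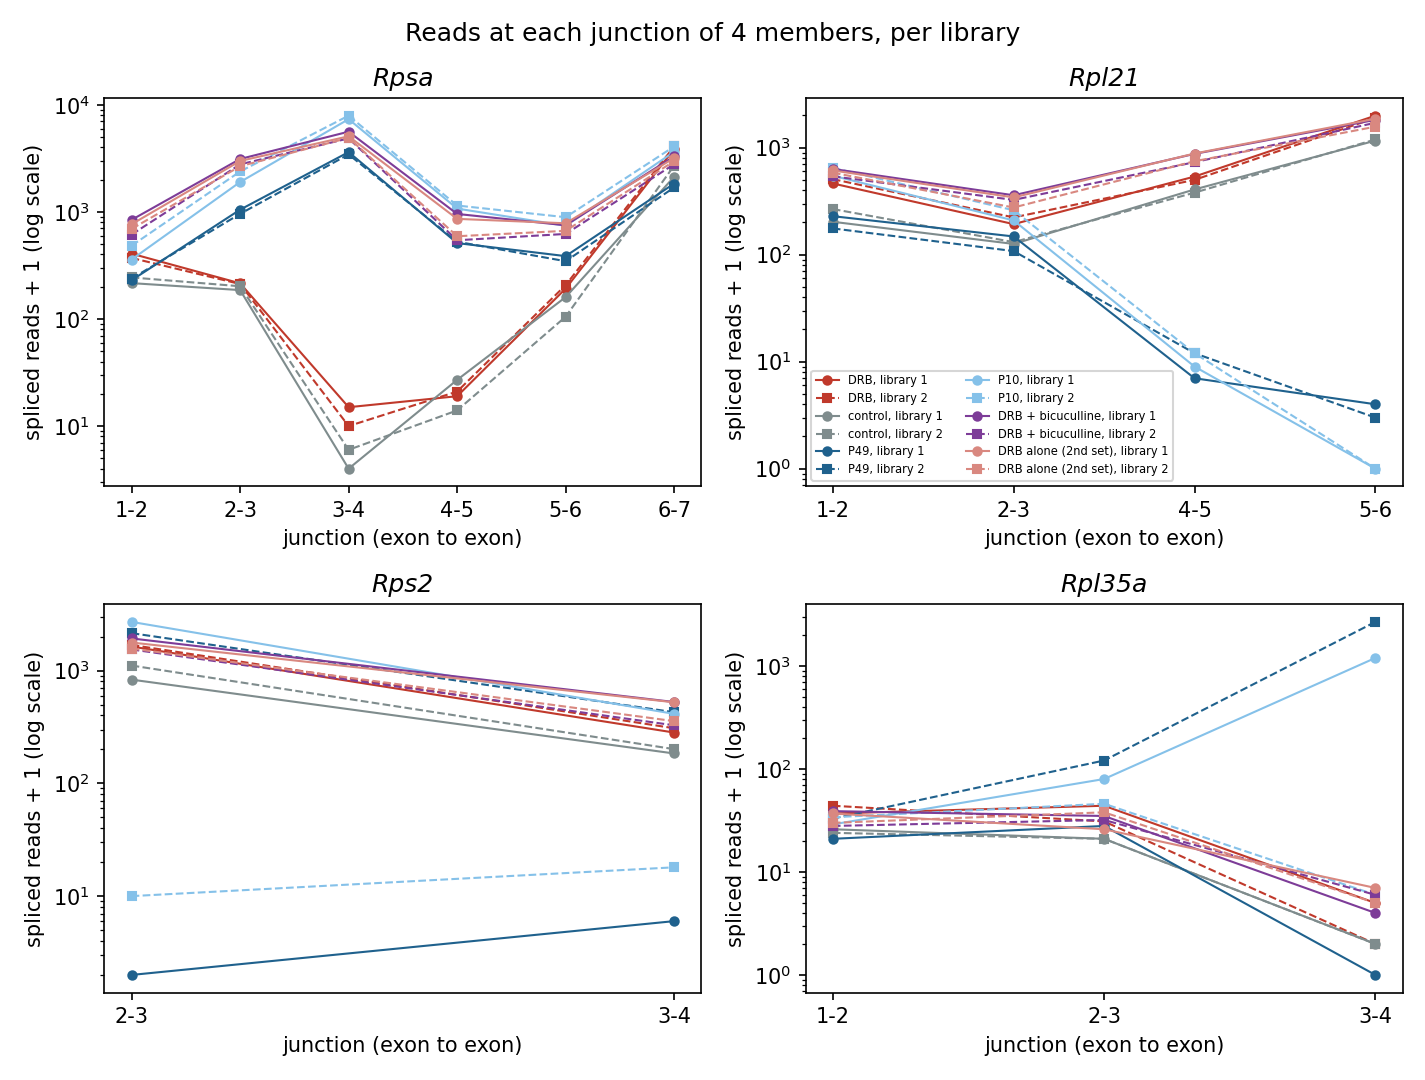
Reads plus 1 at each counted junction of Rpsa, Rpl21, Rps2 and Rpl35a along the transcript, on a log axis, 1 line per library. Exon 3 to 4 of Rpsa is nearly empty in the DRB and control libraries of the first table, exon 5 to 6 of Rpl21 in the tissue libraries, and single junctions of Rps2 and Rpl35a in 1 library of a tissue pair.

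Uneven junctions also occurred between libraries of 1 group, in tissue. Exon 2 to 3 of Rps2 had 1 and 2145 reads in the P49 libraries, and 2700 and 9 in those of P10. Exon 3 to 4 of Rpl35a had 0 and 2686 reads at P49, and 1199 and 5 at P10. Such a gap (at least 200 reads in one library and at most 10% of them in the other) was found at 4 of 154 member junctions at P49, which is 2.60%, and at 0.0414% of all 70101 junctions with that depth. At P10 it was 3 of 164, or 1.83%, against 0.0517% of all, and in the 4 culture groups it was found at 0 member junctions and at 0 of all 65505 to 67968 junctions. The junctions named here for Rps2 and Rpl35a had no exact copy, nor had exon 6 to 7 of Rplp0. With at most 3 mismatches 38, 14 and 7 other annotated genes held their 60 bases. These junctions therefore stay in the sums over junctions without an exact copy. Rps2 and Rpl35a, with SE up to 1.27 and 1.65 on the log2 scale, were called in no comparison in the fits over all groups of a table. Fitted on the DRB and control libraries alone, without the tissue libraries, both were higher with DRB (adjusted p = 6.11e-09 for Rps2 and 3.78e-04 for Rpl35a). At P49 against P10 the log2 change ran from -5.81 to 4.48 (Rps2) and from -3.46 to 3.87 (Rpl35a) over 12 alternative settings, with a call in 2 and 3 of them, each with 1 library left out, and the sums of both genes in tissue are not read as levels.

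Bicuculline changed no call among the members. Of 78 tested, 0 were higher and 0 lower with DRB and bicuculline than with DRB alone, where 0.181% of 14395 genes were called higher and 0.0208% lower. Without adjustment 7 members had a p under 0.05 in edgeR's test, 2 higher and 5 lower, and DESeq2 also called 0. Without the first bicuculline library 2 were called lower. Log2 changes ran from -0.31 in Rpl10a to 0.20 in Rps16, with a median of -0.02, against -0.0007 for all genes. The median SE of a member was 0.052.

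Well-measured members show how close the libraries were. Rps24 had 432 and 454 CPM with bicuculline and 455 and 457 CPM with DRB alone. Rplp0 had 533 and 523 CPM with bicuculline and 532 and 553 CPM with DRB alone, and Rps27l had 79.6 and 81.8 CPM with bicuculline and 78.7 and 87.1 CPM with DRB alone. Their log2 changes were -0.04 ± 0.037, -0.04 ± 0.036 and -0.04 ± 0.049. Rplp1, Rplp2, Rpsa, Rpl13a, Rpl22, Rpl39, Rps4x, Rps27a, Rpl10, Rps6, Rps27, Rpl26, Rpl3 and Rpl3l were between -0.15 and 0.09. Rpl10a, farthest from 0, had 5.16 and 5.82 CPM with bicuculline and 6.86 and 6.73 CPM with DRB alone (adjusted p = 0.923).

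Levels under DRB alone differed between the tables for some genes. Rps24 had 181 and 165 CPM in the first table and 455 and 457 CPM in the second, and Rps19 had 206 and 190 CPM in the first and 80.4 and 80.9 CPM in the second. The tables were normalised separately and the difference was not tested.

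Use of junctions within a gene was tested apart from the gene's level, as the reads of a junction relative to the other junctions of that gene. Shares of reads at a shared donor or acceptor are given as descriptions beside that test and were not tested themselves. At P49 against P10, 12 of 426 member junctions in 7 genes passed an adjusted p of 0.05, or 2.82%, against 1.96% of all 163563 junctions tested. With DRB against control 7 in 5 genes passed, 1.64% against 2.32%. In control cultures against P10 31 in 14 genes passed, 7.28% against 5.95%. With bicuculline 0 of 432 passed, against 0.00273% of 146694, and 8 had an unadjusted p under 0.05 in edgeR's test. These shares are near those of all junctions. The 12 at P49 became 6 without the first P10 library, and the 7 with DRB became 2 and 3 without the first or second DRB library and 3 without the first control library.

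Rps24 has short alternative exons near its end. From the donor of exon 4, 2 junctions were listed, a proximal one (chr14:24493494-24493616) and a distal one (chr14:24493494-24494051). The proximal one took 26 of 29 and 27 of 29 reads in control cultures, 89.7% and 93.1%, against 3 of 19 and 3 of 13 at P10, 15.8% and 23.1% (adjusted p of its usage = 1.22e-05). With DRB it took 6 of 12 and 12 of 17 reads, 50.0% and 70.6%, against the same control libraries (adjusted p = 0.00265, a call lost in 2 of 5 settings). At P49 the distal one took 80 of 94 and 74 of 82 reads, 85.1% and 90.2%, against 16 of 19 and 10 of 13 at P10, and its reads relative to the rest of the gene rose (adjusted p = 2.15e-05). Both junctions together held 29 reads in the first control library and 19 in the first P10 library. All junctions of Rps24 held 6844 and 7724 reads there, so the shares describe a small part of the gene's reads. So few reads leave wide intervals: the exact binomial 95% interval of the proximal share was 72.6% to 97.8% in the first control library and 3.38% to 39.6% in the first P10 library, for counting error only.

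Junctions from alternative first exons passed in 3 large-subunit genes. In Rpl37 the junction chr15:5116927-5117286 took 57.8% and 56.4% of reads into exon 2 at P49 against 64.3% and 60.8% at P10. These were 67 of 116 and 62 of 110 reads against 160 of 249 and 161 of 265. The adjusted p of its usage against the other junctions of the gene was 1.66e-06, and all reads into exon 2 were fewer at P49. In Rpl13a the junction chr7:45127569-45128541 took 42.9% and 43.8% at P49 against 34.7% and 30.4% at P10 (adjusted p = 0.0194, lost in 4 of 6 settings). In Rpl21 the junction chr5:146833567-146834183 took 29.9% and 32.2% at P49 against 15.5% and 18.4% at P10 (adjusted p = 0.0121, lost in 3 of 6 settings).

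Further along, in Rps19 the junction chr7:24885553-24886106 took 62.7% and 49.8% of reads from its donor at P49 against 33.4% and 27.6% at P10, and that call was lost in 3 of 6 settings. An acceptor of Rps16 that is not annotated took 38.9% and 38% at P49 against 15.7% and 10.0% at P10, a call lost in 5 of 6 settings. With DRB against control, junctions that are not annotated passed in Rps15a (17 and 16 reads with DRB against 0 and 0 in control cultures, adjusted p = 0.00303) and in Rpl22 (adjusted p = 0.0436), and both calls were lost in some settings. In control cultures against P10, 17 calls came with a change of at least 5 points at a shared site, among them 5 in Rpsa and 3 in Rpl21, the genes with the nearly empty junctions. Rpl11 was another, where the junction chr4:136052718-136052969 took 7 of 69 and 17 of 103 reads into exon 2 in control cultures against 33 of 112 and 48 of 143 at P10 (adjusted p = 0.00700, lost in 2 of 5 settings).

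Genes around the ribosome were read from lists chosen with earlier results of these data known. Their counts stand against the shares of all genes tested. These were 28.2% called higher and 28.9% lower at P49, and 29.7% higher and 33.0% lower with DRB. Of 6 ribosomal proteins outside the symbol rule 5 fell at P49 and none rose, with a median log2 change of -0.40, and 4 rose and 1 fell with DRB, with a median of 0.48. Gnb2l1, which codes for the scaffold protein RACK1 of the small subunit, had 343 and 335 CPM at P49 against 537 and 544 CPM at P10 (log2 change -0.67 ± 0.042). Rpl7l1, a factor related to Rpl7, was the one that fell with DRB, at 33.2 and 33.5 CPM against 44.4 and 43.8 CPM in control cultures.

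Elongation factors and other mRNAs with a TOP element mostly changed in the direction of the members. Of 14, 10 fell and 1 rose at P49 (median -0.33), and 10 rose and none fell with DRB (median 0.25). Eef1a1, which brings aminoacyl-tRNA to the ribosome, had 1650 and 1700 CPM at P49 against 2620 and 2540 CPM at P10. Eef1a2, the form of mature neurons and muscle, rose at P49, with 1380 and 1400 CPM against 925 and 888 CPM at P10, and rose with DRB as well (log2 change 0.92 ± 0.066). Pabpc1, the poly(A)-binding protein, had 298 and 285 CPM at P49 against 581 and 570 CPM at P10. Of 30 initiation factors 17 fell and 4 rose at P49 (median -0.23), and 22 rose and 2 fell with DRB (median 0.22). Eif4g2, which acts in internal initiation, had 1160 and 1100 CPM at P49 against 1840 and 1900 CPM at P10, and Eif5a, which helps the ribosome past proline runs, 473 and 459 CPM with DRB against 302 and 298 CPM in control cultures.

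Factors that build ribosomes were counted under DRB, where 29.7% of all genes tested were called higher and 33.0% lower. Of 31 assembly factors 6 rose and 13 fell (median -0.09), and of 11 genes of RNA polymerase I and its factors 1 rose and 7 fell (median -0.28). Wdr43, of the early small-subunit particle, had 44.7 and 44.2 CPM with DRB against 78.9 and 73.4 CPM in control cultures (log2 change -0.78 ± 0.075). Nop58, a core protein of box C/D snoRNPs, had 89.0 and 86.7 CPM with DRB against 134 and 124 CPM in control cultures. Polr1c, a subunit that RNA polymerases I and III share, had 32.9 and 29 CPM with DRB against 44.5 and 50.1 CPM in control cultures. At P49 assembly factors had 7 higher and 12 lower (median -0.09), and the RNA polymerase I list 2 higher and 4 lower (median -0.06).

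Regulators were mixed. Of 16, 6 rose and 4 fell at P49 and 4 rose and 8 fell with DRB. Myc, a transcription factor that drives ribosome production, had 1.05 and 0.917 CPM at P49 against 5.02 and 5.85 CPM at P10 (log2 change -2.46 ± 0.15), and 2.06 and 2.32 CPM with DRB against 11.2 and 10.5 CPM in control cultures (log2 change -2.30 ± 0.14). Larp4, which protects poly(A) tails, had 21.3 and 22.8 CPM with DRB against 44.6 and 43.3 CPM in control cultures. Eif4ebp1, a brake on cap-dependent initiation, had 9.88 and 9.98 CPM in control cultures against 2.12 and 1.75 CPM at P10. Of 9 snoRNA host transcripts 2 rose and 4 fell at P49 and 3 rose and 1 fell with DRB.

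Other large complexes serve to place these values. Of 74 mitochondrial ribosomal protein genes, which code for the separate ribosome of mitochondria, 11 rose and 18 fell at P49 (median -0.02), and 32 rose and 13 fell with DRB (median 0.17). Of 38 proteasome genes 6 rose and 13 fell at P49 (median -0.07), and 27 rose and 3 fell with DRB (median 0.22). Of all genes tested 28.2% rose and 28.9% fell at P49, and 29.7% rose and 33.0% fell with DRB. The cytosolic members had medians of -0.30 and 0.47 in the same fits, and the difference between the lists was not tested. In control cultures against P10 the elongation list had 8 higher and 2 lower, the initiation list 9 and 8, assembly factors 10 and 13, the RNA polymerase I list 3 and 3, snoRNA hosts 4 and 2, regulators 8 and 4, mitochondrial ribosomal proteins 14 and 25, proteasome genes 9 and 14, and ribosomal proteins outside the rule 1 and 2. With bicuculline all 9 lists had 0 higher and 0 lower in edgeR's test, against 0.181% and 0.0208% of all genes tested.

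**Figure D5:**
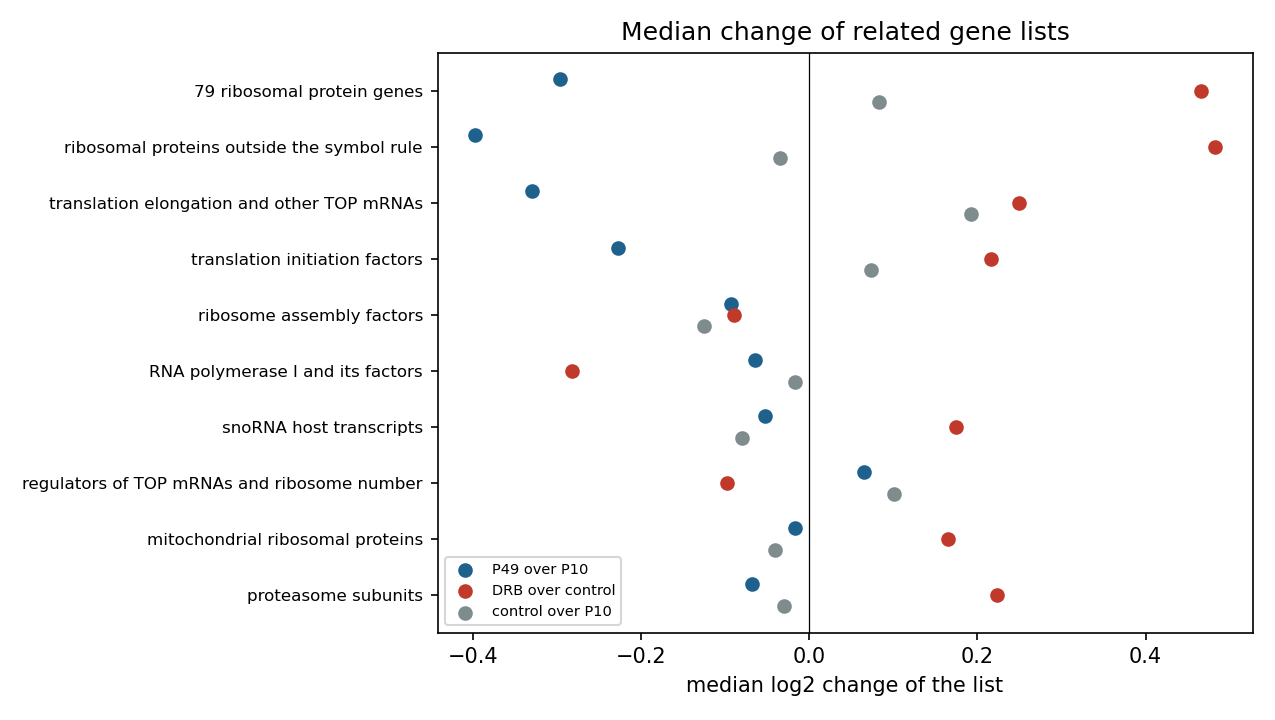
Median log2 change of the 78 ribosomal protein genes tested and of 9 other gene lists in 3 comparisons. With DRB against control the cytosolic ribosomal proteins lie at 0.47, the proteasome at 0.22, mitochondrial ribosomal proteins at 0.17 and RNA polymerase I and its factors at -0.28.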

How the data were processed

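RNA of 12 libraries was sequenced after poly(A) selection with a stranded kit, per the labels' protocols. The submitters' processing notes name STAR 2.4.0f1 and the build mm10, GRCm38. The counting and filtering of spliced reads by the authors is not described there. Both deposited tables hold, per the file headers, whole-number counts of reads across each junction, with no normalisation. Column names show a group but no replicate of the labels, so library numbers follow the column order, and a further 72 columns of per-library values matched no library with certainty and stayed unused. Rows without a gene symbol, 0.432% to 0.547% of reads, stayed out.

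Reads of distinct junctions were summed per symbol and tested with edgeR 4.0.16 (filter on low counts, TMM, quasi-likelihood test, two-sided, Benjamini-Hochberg over all genes tested, called at 0.05), with all 8 libraries of the first table in one fit and the 4 of the second in another. Junction usage was tested with diffSpliceDGE. Errors are SE of log2 changes or SD of 2 libraries. Each fit was first tested on simulated data in which 200 genes changed. In R 4.3.3, alternatives were DESeq2 1.42.0, other scalings, no filter, annotated introns only, fewer groups in the fit and each library left out. The median over junctions and the sum over junctions without an exact copy were added after seeing the data. Members and lists were chosen with earlier results of these data known. Named in full were the 5 largest changes per direction among called members, members listed by role, and up to 4 called genes per other list by p. A gene that this rule names in another list is not reported here. Reads carry no molecular identifiers, so intervals cover counting error only.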

Additional observations from a re-analysis of the deposited data

How the results depend on the processing

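The median log2 changes of the members for P49 against P10, DRB against control, control against P10 and bicuculline kept their sign under all alternatives run. Calls that held in every one of 12 settings numbered 28 of 46 for P49 against P10, 35 of 65 for DRB and 11 of 34 for control against P10. Over junctions without an exact copy 63 members were tested, with 29 lower at P49 and 38 higher with DRB, and 16 higher and 3 lower in control cultures than at P10, where the median was 0.039. That median, 0.08 in the report, was 0.052 with upper quartile scaling, 0.073 without a filter, 0.065 with DESeq2 and 0.0047 with the median over junctions, which left 10 higher. Leaving out 1 library gave 2 to 4 higher at P49, 4 to 9 lower in control cultures with medians of 0.048 to 0.10, and with bicuculline 0 to 2 lower with medians of -0.056 to -0.0057. Junctions with changed usage numbered 6 to 11 for P49 and 2 to 5 for DRB without 1 library, and 4 for DRB with a minimum of 50 reads. A library left alone in its group was assumed to vary like the others. The median level per junction at a 20% limit was 21.1 at P49, 24.1 at P10, 28.8 with DRB, 22.2 in control cultures, 35.9 with bicuculline and 37.3 with DRB alone in the second table.

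Signs turned in members with no call or small changes, as log2 values. With junctions without an exact copy these were 2.76 (Rpl3, P49), 0.0065 (Rpl3l, P49), -0.16 (Rpl13a, P49), 0.84 (Rpl3), -0.26 (Rpl39), 0.51 (Rps6) and -0.39 (Rpl13a) for control against P10, and 0.056 (Rpl39, bicuculline). With the median over junctions they were 0.25 (Rpl3), -0.053 (Rps27) and -0.38 (Rps6) at P49, -0.0055 (Rpl3, DRB), 0.080 (Rpl3) and -0.47 (Rpl26) in control cultures, and 0.071 (Rplp2) and 0.0084 (Rpsa) with bicuculline. Rpl3l at P49 was 0.0095 over annotated introns and 0.017 with DESeq2. Without 1 library ranges crossed 0 at P49 for Rpl3l (-0.96 to 0.58), Rpl13a (-0.017 to 0.079), Rps27 (-0.092 to 0.32), Rps6 (-0.037 to 0.40), Rps27a (-0.012 to 0.11) and Rpl26 (-0.37 to 0.0065), in control cultures for Rps6 (-0.11 to 0.0062), Rpl26 (-0.025 to 0.34) and Rps27 (-0.39 to 0.053), and with bicuculline for Rplp2 (-0.043 to 0.024), Rpsa (-0.069 to 0.038), Rps27a (-0.086 to 0.061), Rpl26 (-0.055 to 0.088), Rpl3l (-0.22 to 0.42), Rplp1 (-0.074 to 0.040), Rps27 (-0.21 to 0.12) and Rps27l (-0.11 to 0.036). The cause was not tested.

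No paired analysis was possible because columns of the first table carry no replicate number. In the second, a replicate block on the final letter of the column names gave 0 members higher, 0 lower, a median of -0.02 and 0 junctions. Upper quartile scaling, DESeq2 and TMM without the members shifted the median of all genes by less than 0.1. Each of these takes the bulk of genes as its reference, so a shift shared by most genes cannot be seen. Scaling by plain library size was not run. Depth limits members with few reads, such as Rpl39l, Rpl3l and Rpl29.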
